A study of Mus musculus with 12 samples.

Results

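Serpine2, Ctse, Tanc2, and Matn2 are 4 of the 25078 genes in a table of read counts from donor T cells recovered from mice after an allogeneic hematopoietic cell transplant. They were chosen by their log2 fold changes in CD4+ T cells of STAT3-/-PD-1-/- donors, which were among the largest in those cells. Serpine2, Ctse, and Tanc2 were chosen as rises, and Matn2 was chosen as a fall. Their values in CD4+ T cells are therefore given as a description with no test. The choice did not name the CD8+ libraries, and these were tested. Earlier results of these data were known when the 4 genes were chosen, and the subsets share recipients, so the CD8+ tests are not fully independent of the choice.

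The study asked how loss of STAT3 in donor T cells changes the cells that reach the liver, and how much of that change needs PD-1. Donor T cells were taken from the liver on day 6 after hematopoietic cell transplantation (HCT) and sorted as donor cells (H-2Kb+TCRb+) that were CD4+ or CD8+. There were 3 donor genotypes in each subset and 2 libraries for each of the 6 groups, 12 libraries in all. Each library combined the lymphocytes of 3 recipients, so a replicate is a pool.

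All donors were C57BL/6 mice and all recipients were WT BALB/c mice that had been lethally irradiated and given T cell–depleted bone marrow of WT C57BL/6 mice with the donor T cells. WT donors carried neither deletion. STAT3-/- donors carried floxed Stat3 alleles and the CD4-Cre transgene, which removes Stat3 in the T cell lineage, CD8+ T cells included, and not in other donor cells. STAT3-/-PD-1-/- donors lacked PD-1 in addition, through a germline deletion that every cell of the donor carries. No group lacked PD-1 alone. Ages of the mice were not given in the sources used here. The supplement says that the CD8+ cells came from the same livers as the CD4+ cells, so the subsets are different cells of shared recipients and not separate animals. Libraries held 21676125 to 24551477 counts on genes.

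The 4 genes belong to different families. Serpine2 encodes protease nexin-1, a secreted serpin that traps thrombin, urokinase, and other serine proteases in inactive complexes. Ctse encodes cathepsin E, an aspartic protease of endosomal compartments that is found in immune and gastric cells. Tanc2 encodes a large scaffold protein with ankyrin and tetratricopeptide repeats, best known from the postsynaptic density of neurons. Matn2 encodes matrilin-2, an adaptor protein that links filaments of the extracellular matrix.

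In mouse genome build mm10, Serpine2 spans 79794321 to 79858665 on chromosome 1 (minus strand), and Ctse lies on the plus strand of the same chromosome, from 131638314 to 131675507. Tanc2 is on the plus strand of chromosome 11, from 105589986 to 105929303, and Matn2 is on the plus strand of chromosome 15, from 34306681 to 34436240. The annotation (GENCODE vM21) lists all 4 as protein-coding, and their transcripts with the most exons have 9, 10, 26, and 19 exons, in the order named at the opening. RefSeq promoter sequences of the same build, from 250 bases before to 50 after the gene start, were at hand for 2 of the 4 genes. They are shown because both genes rose in the same libraries, and because their promoters can be compared base by base. Capitals mark the letters GGGCGG, the GC box, on either strand.

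Serpine2, chr1:79858616-79858915, minus strand: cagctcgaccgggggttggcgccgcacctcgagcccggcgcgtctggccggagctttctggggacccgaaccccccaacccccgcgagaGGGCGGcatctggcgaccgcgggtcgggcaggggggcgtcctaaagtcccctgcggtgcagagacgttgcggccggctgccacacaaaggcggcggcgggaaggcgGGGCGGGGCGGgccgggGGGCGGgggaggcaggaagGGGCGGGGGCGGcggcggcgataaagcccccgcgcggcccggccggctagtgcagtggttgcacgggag
Tanc2, chr11:105589736-105590035, plus strand: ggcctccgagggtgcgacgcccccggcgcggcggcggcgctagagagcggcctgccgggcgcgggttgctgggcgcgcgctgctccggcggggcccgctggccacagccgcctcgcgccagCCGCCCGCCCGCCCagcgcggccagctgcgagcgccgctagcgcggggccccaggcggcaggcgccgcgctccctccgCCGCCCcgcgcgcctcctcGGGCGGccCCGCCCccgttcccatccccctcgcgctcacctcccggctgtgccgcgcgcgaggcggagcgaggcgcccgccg

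Both promoters were rich in G and C. The Serpine2 promoter had 77.7% GC and 41 CpG dinucleotides, and the Tanc2 promoter had 85.3% GC and 57, as against medians of 52.7% and 7 over 32817 promoters of the same length. A lower GC share was found in 97.9% of all promoters as compared with Serpine2 and in 99.9% as compared with Tanc2. Each promoter held 6 matches to GGGCGG, counted on both strands and with overlaps. At least 1 match was found in 35.6% of all promoters, a share that is no measure of how common 6 matches are. Promoters of like GC share were not compared. The letters TTCNNNGAA, the form of a STAT motif, were found in neither promoter and in 8.29% of all promoters. These are descriptions of letters in a window and say nothing about which factor binds there.

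The targeted genes were examined first. Stat3 had 391 and 387 CPM (read counts scaled to a common library size) in the WT CD8+ libraries, 148 and 136 in the STAT3-/- libraries, and 154 and 237 in the STAT3-/-PD-1-/- libraries. In CD4+ libraries it had 365 and 467, 139 and 165, and 157 and 221 CPM, in the same order. Every library of the deleted genotypes was below every WT library, and in both subsets the second STAT3-/-PD-1-/- library kept more Stat3 than the first. Pdcd1, the gene of PD-1, had 371 and 309 CPM in WT, 421 and 455 in STAT3-/- libraries, and 93.9 and 66.1 in STAT3-/-PD-1-/- CD8+ libraries. The CD4+ libraries had 244 and 235, 260 and 325, and 55.2 and 26.2 CPM. Within CD8+ T cells, the log2 fold change of Pdcd1 in STAT3-/-PD-1-/- was -2.09 from WT (SE 0.19, adjusted p = 0.00243 in edgeR) and -2.45 from STAT3-/- (SE 0.19, adjusted p = 0.00206). That of Stat3 from WT was -1.46 in STAT3-/- (SE 0.20, adjusted p = 0.108), which did not pass 0.05, and -0.996 in STAT3-/-PD-1-/- T cells (SE 0.20, adjusted p = 0.0177). The labels were thus borne out by both targeted genes, although neither fell to 0 in any library.

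Ctse was the most abundant of the 4 genes and had the largest rise in CD8+ T cells. The CD4+ libraries had 52.0 and 73.9 CPM in WT, 30.8 and 34.4 in STAT3-/- libraries, and 540 and 595 in STAT3-/-PD-1-/- T cells. The CD8+ libraries had 28.0 and 38.6 CPM in WT, 19.7 and 21.9 in STAT3-/- libraries, and 391.6 and 415 in STAT3-/-PD-1-/- T cells. In both subsets the STAT3-/- libraries were the lowest and the STAT3-/-PD-1-/- libraries the highest, and no groups of a subset overlapped. As compared with WT, Ctse in STAT3-/-PD-1-/- CD8+ T cells rose by 3.59 on the log2 scale (SE 0.18, adjusted p = 0.000781 in edgeR, quasi-likelihood F test, with p-values adjusted by Benjamini-Hochberg over 12002 genes), which is 12.1-fold. As compared with STAT3-/- CD8+ T cells, the rise was 4.27 (SE 0.19, adjusted p = 0.000583 in the same edgeR fit), or 19.3-fold. A larger absolute log2 fold change than that of Ctse was seen for 0.475% and 0.183% of the genes tested, in the same order.

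The lower level of Ctse in STAT3-/- T cells was smaller than the rise and was not called. The log2 fold change from WT was -0.68 in CD8+ T cells (SE 0.17, adjusted p = 0.277 from edgeR). With DESeq2 the same difference had a log2 fold change of -0.68 and an adjusted p of 0.0166, and over all alternatives the adjusted p ran from 0.0166 to 0.882. Among CD4+ T cells, where no test applies, the log2 fold changes of Ctse were -0.96 for STAT3-/- against WT (SE 0.20), 3.18 for STAT3-/-PD-1-/- against WT (SE 0.21), and 4.13 for STAT3-/-PD-1-/- against STAT3-/- (SE 0.22). In order of mean level, Ctse ran from 568 ± 39.0 CPM in STAT3-/-PD-1-/- CD4+ and 403 ± 16.7 in STAT3-/-PD-1-/- CD8+ T cells to 63.0 ± 15.5 in WT CD4+, 33.3 ± 7.54 in WT CD8+, 32.6 ± 2.57 in STAT3-/- CD4+, and 20.8 ± 1.57 in STAT3-/- CD8+ T cells (SD, n = 2 in each group). In that order, WT CD8+ and STAT3-/- CD4+ T cells overlapped and the other neighbours did not.

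Divided by exon length, Ctse came close to the top of the transcriptome in STAT3-/-PD-1-/- T cells. Its mean level was 268 RPKM (reads per kilobase of exon, scaled to library size) in CD4+ and 190 RPKM in CD8+ T cells, and 99.4% and 99.0% of all 25078 genes were lower. In WT T cells the level was 29.7 and 15.7 RPKM. On this scale Serpine2 reached 13.2 and 8.15 RPKM and Tanc2 reached 2.83 and 3.03 RPKM in the CD4+ and CD8+ cells of the same genotype. Matn2 had 6.42 RPKM in WT CD4+ T cells, its highest group. The 4 genes thus differed widely in level even where their fold changes were similar.

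**Figure D1:**
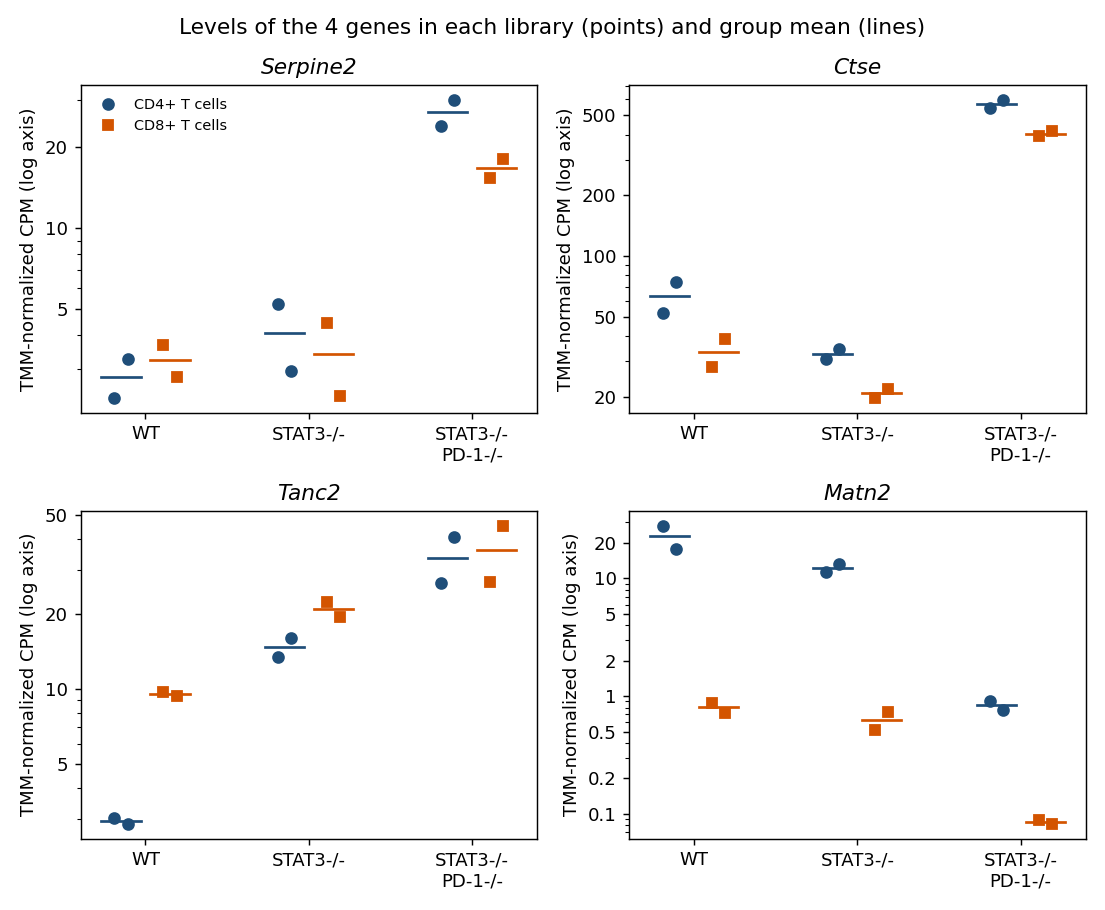
Levels of Serpine2, Ctse, Tanc2, and Matn2 in each of the 12 libraries, as TMM-normalized CPM on a log axis, by donor genotype, with CD4+ T cells as circles, CD8+ T cells as squares, and a line at the mean of 2 libraries. Serpine2 and Ctse are high only in the STAT3-/-PD-1-/- libraries, Tanc2 is already above WT in STAT3-/- libraries, and Matn2 is lowest in STAT3-/-PD-1-/- libraries of each subset and far lower in CD8+ than in CD4+ T cells of every genotype.

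Serpine2 differed from Ctse in that its level was low and much the same in WT and STAT3-/- T cells. The CD4+ libraries had 2.34 and 3.26 CPM in WT, 5.24 and 2.95 in STAT3-/- libraries, and 24.1 and 30.1 in STAT3-/-PD-1-/- T cells. The CD8+ libraries had 3.68 and 2.81, 4.45 and 2.37, and 15.4 and 18.1 CPM. The WT and STAT3-/- libraries overlapped in both subsets, while every STAT3-/-PD-1-/- library stood above them. Among CD8+ T cells the rise was 2.36 on the log2 scale as compared with WT (SE 0.33, adjusted p = 0.00716 from edgeR) and 2.29 as compared with STAT3-/- (SE 0.32, adjusted p = 0.00817), and the difference between STAT3-/- and WT was 0.067 (SE 0.33, adjusted p = 0.972). Without the second STAT3-/-PD-1-/- library, these rises were 2.23 and 2.16 with adjusted p of 0.0720 and 0.0831, so that both calls were lost.

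For CD4+ T cells the log2 fold changes of Serpine2 were 0.54 (SE 0.33), 3.28 (SE 0.34), and 2.74 (SE 0.33) for STAT3-/- against WT, STAT3-/-PD-1-/- against WT, and STAT3-/-PD-1-/- against STAT3-/-. The order of levels was STAT3-/-PD-1-/- CD4+ (27.1 ± 4.21 CPM), STAT3-/-PD-1-/- CD8+ (16.8 ± 1.93), STAT3-/- CD4+ (4.10 ± 1.62), STAT3-/- CD8+ (3.41 ± 1.47), WT CD8+ (3.25 ± 0.614), and WT CD4+ T cells (2.80 ± 0.647; SD, n = 2). The last 4 of these groups overlapped with one another, and the first 2 did not.

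Tanc2 differed from both in that it was higher in STAT3-/- libraries too. The CD4+ libraries had 3.02 and 2.88 CPM in WT, 13.4 and 15.9 in STAT3-/- libraries, and 26.6 and 40.5 in STAT3-/-PD-1-/- T cells. The CD8+ libraries had 9.69 and 9.37, 22.3 and 19.4, and 26.8 and 45.2 CPM. The level rose in steps from WT to STAT3-/- to STAT3-/-PD-1-/- libraries in both subsets with no overlap, and the STAT3-/-PD-1-/- duplicates were far apart. Among CD8+ T cells the rise from WT to STAT3-/-PD-1-/- was 1.91 on the log2 scale (SE 0.26, adjusted p = 0.00665 from edgeR), or 3.76-fold. Neither step alone passed the threshold, with log2 fold changes of 1.13 from WT to STAT3-/- (SE 0.25, adjusted p = 0.252) and 0.79 from STAT3-/- to STAT3-/-PD-1-/- (SE 0.25, adjusted p = 0.0679).

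The calls for these steps of Tanc2 changed with the test. With DESeq2 the adjusted p was 0.00644 for the first step and 0.0239 for the second, and with all genes that had at least 1 count kept in edgeR it was 0.0476 and 0.0321. Over all alternatives it ran from 0.00644 to 0.772 and from 0.0239 to 0.303. The second step was 1.10 without the first STAT3-/-PD-1-/- library (adjusted p = 0.0318) and 0.35 without the second (adjusted p = 0.303). Within CD4+ T cells the log2 fold changes of Tanc2 were 2.31 (SE 0.27) for the first step, 1.21 (SE 0.24) for the second, and 3.52 (SE 0.27) for both. In order of level, STAT3-/-PD-1-/- CD8+ (36.0 ± 13.03 CPM) and CD4+ T cells (33.6 ± 9.82) overlapped with each other, and were followed by STAT3-/- CD8+ (20.8 ± 2.04), STAT3-/- CD4+ (14.7 ± 1.79), WT CD8+ (9.53 ± 0.227), and WT CD4+ T cells (2.95 ± 0.1003; SD, n = 2), which did not overlap.

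Matn2 was the gene that fell. The CD4+ libraries had 28.1 and 17.8 CPM in WT, 11.2 and 13.3 in STAT3-/- libraries, and 0.910 and 0.761 in STAT3-/-PD-1-/- T cells. The CD8+ libraries had only 20 and 18 counts in WT, 12 and 18 in STAT3-/- libraries, and 2 and 2 in STAT3-/-PD-1-/- T cells. The STAT3-/-PD-1-/- libraries were the lowest in each subset, and in CD8+ T cells they lay under the floor of 3 counts, which stands for 0.133 and 0.124 CPM. Matn2 passed the filter on low counts in CD8+ T cells through its WT and STAT3-/- libraries alone. The summed counts gave a WT level 9.33 times that of STAT3-/-PD-1-/- CD8+ T cells (exact 95% confidence interval 3.36 to 36.0, for counting error only) and a STAT3-/- level 7.35 times as high (2.59 to 28.7).

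No edgeR test is read for these comparisons, since the fitted log2 fold changes of -3.15 from WT and -2.80 from STAT3-/- rest on 4 counts in the group compared. Between STAT3-/- and WT CD8+ T cells the libraries overlapped, with a log2 fold change of -0.35 (SE 0.42, adjusted p = 0.823). For CD4+ T cells the log2 fold changes were -0.90 (SE 0.26), -4.76 (SE 0.33), and -3.86 (SE 0.32) for STAT3-/- against WT, STAT3-/-PD-1-/- against WT, and STAT3-/-PD-1-/- against STAT3-/-. From the highest group down, Matn2 had 22.9 ± 7.32 CPM in WT CD4+, 12.3 ± 1.45 in STAT3-/- CD4+, 0.835 ± 0.106 in STAT3-/-PD-1-/- CD4+, 0.800 ± 0.108 in WT CD8+, 0.625 ± 0.158 in STAT3-/- CD8+, and 0.0855 ± 0.00450 in STAT3-/-PD-1-/- CD8+ T cells (SD, n = 2). STAT3-/-PD-1-/- CD4+ and WT CD8+ T cells overlapped in that order, as did WT and STAT3-/- CD8+ T cells.

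All 4 genes passed the filter on low counts in CD8+ T cells, the libraries the choice did not name, and Matn2 is left out of the counts of calls because its STAT3-/-PD-1-/- libraries lay under the floor. Ctse, Serpine2, and Tanc2 were each called in STAT3-/-PD-1-/- against WT, where 17.2% of the 12002 genes tested were called (9.01% higher and 8.21% lower). As compared with STAT3-/-, Ctse and Serpine2 were called and Tanc2 was not, against a background of 16.8% (8.76% higher and 8.05% lower). None of the 4 was called by edgeR in STAT3-/- against WT, where 0.0583% of genes were (0.0167% higher and 0.0417% lower). There 2 of the 4, Ctse and Tanc2, had an unadjusted p under 0.05 in edgeR (0.00442 and 0.00282), as did 11% of all genes. DESeq2 called both, and the number of all genes that it called in this comparison is given below with the serpin list. The unadjusted p was under 0.05 for 34% of genes in STAT3-/-PD-1-/- against WT and 34.4% against STAT3-/-. The CD4+ background was 0.334% for STAT3-/- against WT (0.151% higher and 0.184% lower), 12.9% for STAT3-/-PD-1-/- against WT (7.21% higher and 5.65% lower), and 11.1% for STAT3-/-PD-1-/- against STAT3-/- (6.05% higher and 5.03% lower), and nothing is read from it about genes chosen there. With the replicate number as a block, the CD4+ shares were 2.53%, 26%, and 26% in the same order, and the CD8+ shares were 0.075%, 24.7%, and 24.4%. The sample numbers in the labels run together by replicate number across both subsets, and for T cell receptor sequencing of such cells the study's methods describe 2 batches, each of 3 mice. Whether the replicate number of the RNA libraries marks these batches is not stated in the sources used here. Within the first and the second libraries, the CD8+ log2 differences between STAT3-/-PD-1-/- and WT were 3.804 and 3.42 for Ctse, 2.04 and 2.65 for Serpine2, and 1.46 and 2.26 for Tanc2, and the block changed no call of these genes. These comparisons share libraries with each other within a subset. In bulk libraries, fewer cells that express a gene and less RNA per cell cannot be told apart.

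Libraries of a pair of groups failed to overlap for many genes. Among CD8+ libraries this held for 59.8% of genes in STAT3-/-PD-1-/- against WT (30.8% higher and 28.9% lower), 63% in STAT3-/-PD-1-/- against STAT3-/- (32.5% and 30.5%), and 43.4% in STAT3-/- against WT (22.3% and 21.1%). Among CD4+ libraries it held for 59% (31% and 28%), 59% (29.6% and 29.3%), and 38.1% (19.2% and 18.9%). A lack of overlap with 2 libraries a group is thus common and sets none of the 4 genes apart.

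**Figure D2:**
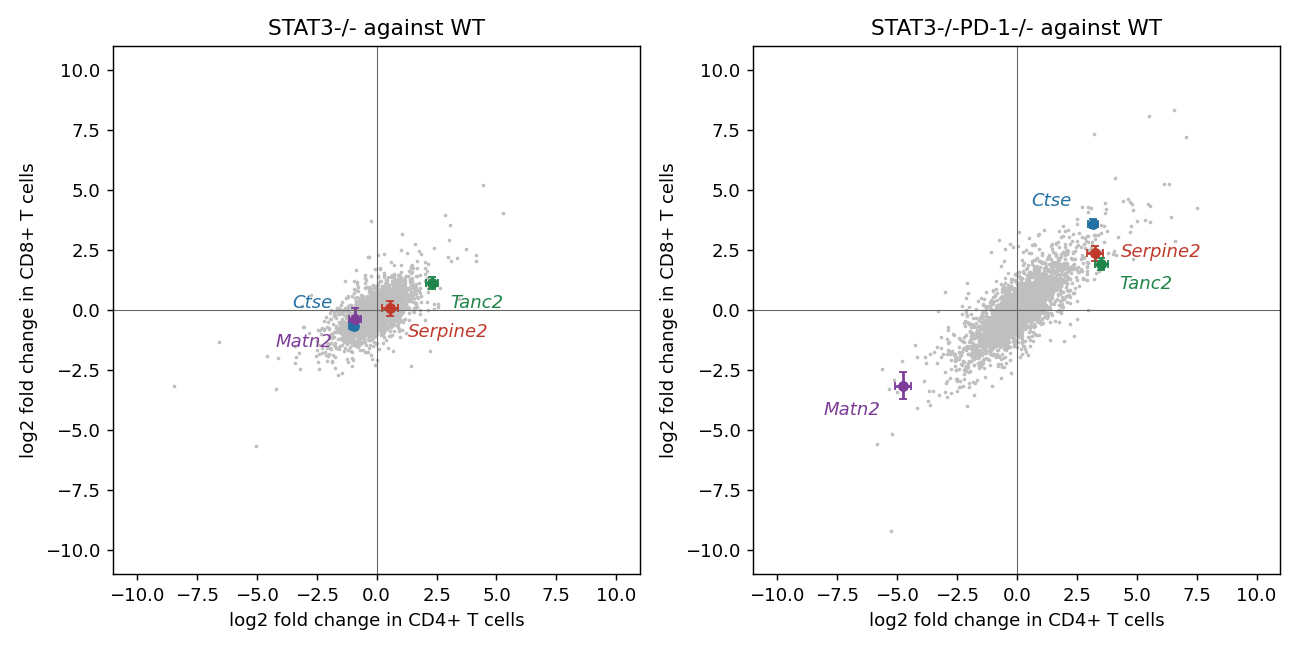
Log2 fold change in CD4+ (x axis) and CD8+ T cells (y axis) of all genes tested in both subsets (grey) and of the 4 genes (colored, with SE bars), for STAT3-/- against WT on the left and STAT3-/-PD-1-/- against WT on the right. On the right Ctse, Serpine2, and Tanc2 lie at 3.59, 2.36, and 1.91 in CD8+ T cells and Matn2 lies at -3.15, a fitted value that rests on 4 counts. On the left Tanc2 lies at 2.31 in CD4+ T cells. That contrast shares its WT libraries with the values that chose Tanc2, so its size there is no support.

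The genes next to the 4 in size of change in CD4+ T cells are listed as a description. These ranks restate the values that chose the 4 genes and are no support for them. The limits on call, level, and overlap were set for this ranking and are not stated in the choice. A call served here only to pick the genes ranked and is not read as a test of the 4. Among 1090 genes called in CD4+ STAT3-/-PD-1-/- against WT whose average log2 CPM reached 3 and whose libraries were apart, the largest rises were those of Tanc2 (3.52), Serpine2 (3.28), Lad1 (3.23), Ctse (3.18), and Nos1 (2.91). Lad1, which was not chosen, thus stood above Ctse, and Nos1 stood next below it. The largest falls were those of Il1r1 (-5.22), Miat (-5.11), and Matn2 (-4.76), followed by Gpr15 (-4.26) and B4galnt4 (-3.88). As compared with STAT3-/- CD4+ T cells, Ctse had the largest rise of 988 such genes (4.13) and Serpine2 was the sixth, while Matn2 had the second largest fall behind Gpr15. These ranks depend on the limit on level. Among all 11959 genes tested, Tanc2, Serpine2, and Ctse were 40th, 47th, and 55th among the rises from WT and Matn2 was 15th among the falls. From STAT3-/-, Ctse was 24th, Serpine2 94th, and Tanc2 only 520th among the rises, and Matn2 was 7th among the falls.

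The subsets differed in the level of each gene. Matn2 had the widest gap, with a CD4+ level 28.7 times that of CD8+ T cells in WT and 19.6 times in STAT3-/- libraries, while the 4 counts in STAT3-/-PD-1-/- CD8+ T cells allow no firm ratio. Ctse was also higher in CD4+ T cells, 1.89, 1.56, and 1.41 times, with no overlap of libraries in any genotype. Tanc2 was the reverse, with a CD8+ level 3.23 times that of CD4+ T cells in WT and 1.42 times in STAT3-/- T cells, and with overlapping libraries in STAT3-/-PD-1-/- T cells. Serpine2 was higher in CD4+ T cells only in the STAT3-/-PD-1-/- libraries (1.62 times) and overlapped in the other genotypes. None of these differences between subsets was tested.

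The purity of the sorted cells was examined with marker lists. Cd4 ranged from 1252 to 1899 CPM in CD4+ and from 0.351 to 2.76 CPM in CD8+ libraries, and Cd8a from 594 to 1347 CPM in CD8+ and from 0.421 to 5.68 CPM in CD4+ libraries. Both were lowest in the STAT3-/-PD-1-/- libraries of their own subset, where Cd4 had 1326 and 1252 CPM, as against 1685 to 1899 in the other CD4+ libraries, and Cd8a had 597 and 594 CPM, as against 1015 to 1347 in the other CD8+ libraries. The 10 T cell markers summed to 5210 to 8141 CPM, led by Thy1. The T cell markers too were lowest in the STAT3-/-PD-1-/- libraries of each subset (6325 and 5898 CPM in CD4+, 5298 and 5210 CPM in CD8+). The part of these shifts in the values of the 4 genes was not tested.

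Markers of cells that could carry RNA of the 4 genes were low. The 12 hepatocyte markers summed to 1.498 to 5.64 CPM, led by Trf, with Ttr, Serpina1a, Cyp3a11, and Cyp2e1 at no more than 3 counts in any library. The 11 stellate cell and fibroblast markers, of interest for the matrix gene Matn2 and for Serpine2, summed to at most 2.16 CPM, led by Colec11, and 7 of them, Col1a2 and Col3a1 included, had at most 3 counts in any library. Platelet markers, led by Itga2b, reached at most 2.28 CPM, neutrophil markers at most 1.35 CPM, and erythroid markers at most 0.737 CPM. S100a8 and Alas2 led the neutrophil and erythroid lists over all libraries together, but each had no count in some libraries. The part of these cells in the values of the 4 genes was not tested.

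Some lists were higher, and the share of the leading gene in them varied. The 9 dendritic cell markers summed to 72.4 and 66.9 CPM in WT, 29.9 and 33.4 in STAT3-/- libraries, and 10.9 and 13.5 in STAT3-/-PD-1-/- CD4+ libraries, and to 388 and 368, 220 and 245, and 29.9 and 23.3 CPM in CD8+ T cells. Most of this was Itgax in the WT and STAT3-/- libraries, while Flt3, Xcr1, Clec9a, Siglech, and Cd209a had at most 3 counts in any library. The fall of the list was that of Itgax. Without Itgax the list was led by H2-Ab1 in CD4+ T cells and summed to 2.57 and 4.70 CPM in WT, 4.07 and 5.46 in STAT3-/- libraries, and 5.90 and 7.77 in STAT3-/-PD-1-/- CD4+ libraries, so that this remainder was highest where Ctse was highest. It was 1.53 and 2.69, 1.63 and 2.01, and 2.04 and 2.88 CPM in CD8+ T cells, where the STAT3-/-PD-1-/- libraries were above the STAT3-/- libraries and overlapped with WT. Macrophage and Kupffer cell markers summed to 7.40 to 39.5 CPM, led by Cd68, the B cell markers to 1.68 to 14.7 CPM, led by Cd79b, with Ms4a1 at 0 in every library, and the endothelial markers to 112 to 197 CPM, nearly all of it Pecam1. Among CD8+ T cells the macrophage list was 17.8 and 19.4 CPM in STAT3-/-PD-1-/- and 29.7 and 39.5 CPM in WT libraries, and the B cell list was 6.52 and 5.64 CPM against 14.7 and 10.9 CPM. NK cell markers, led by Klrb1c over all libraries together, summed to 78.9 and 87.4 CPM in WT, 62.0 and 83.1 in STAT3-/- libraries, and 46.9 and 30.8 in STAT3-/-PD-1-/- CD8+ T cells. In CD4+ T cells they summed to 15.4 and 14.7, 21.9 and 20.8, and 27.0 and 19.3 CPM in the same order. Klrb1c was 11.3 of the 30.8 CPM in the second STAT3-/-PD-1-/- CD8+ library and 10.2 of the 19.3 CPM in the second STAT3-/-PD-1-/- CD4+ library. Epcam, which was nearly all of the cholangiocyte list, with Krt19, Krt7, and Sox9 at no more than 3 counts in any library, had 4.05 and 4.02 CPM in WT, 5.20 and 5.46 in STAT3-/- libraries, and 8.11 and 8.89 in STAT3-/-PD-1-/- CD4+ libraries, the order of Tanc2. It had 11.2 and 8.56, 13.2 and 10.7, and 10.3 and 10.3 CPM in CD8+ T cells. There the STAT3-/-PD-1-/- libraries were below the STAT3-/- libraries, and each of these groups overlapped with WT. The part of these lists in the values of the 4 genes was not tested.

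The regulatory T cell list set the replicates apart. It summed to 1928 and 1078 CPM in WT, 2124 and 978 in STAT3-/- libraries, and 1315 and 993 in STAT3-/-PD-1-/- CD4+ libraries, with Ctla4 as the most abundant gene. The first library of each group was the higher in both subsets. Ctse was lower in the first library than in the second in each of the 6 groups, the reverse of this order, and so were the summed hepatocyte, macrophage, neutrophil, and platelet lists. Serpine2, Tanc2, and Matn2 were lower in the first library of some groups and not of others. The part of these lists and of the replicate number in the values of the 4 genes was not tested.

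The families of the 4 genes were examined for other members that moved. In the list of 29 serpins and genes of plasminogen activation and thrombin signalling, 15 passed the filter in CD8+ T cells, of which 4 were higher and 4 lower in STAT3-/-PD-1-/- against WT (17.2% of all genes called), and 3 were higher and 3 lower against STAT3-/- (16.8%). F2r and F2rl1, receptors that are cleaved by thrombin and by trypsin-like proteases, fell. F2r had 275 and 258 CPM in WT, 200 and 188 in STAT3-/- libraries, and 102 and 97.5 in STAT3-/-PD-1-/- CD8+ T cells, a log2 fold change of -1.42 from WT (SE 0.11, adjusted p = 0.00199 from edgeR). F2rl1 had 32.6 and 36.2, 20.6 and 25.2, and 3.33 and 4.98 CPM, a log2 fold change of -3.05 (SE 0.23, adjusted p = 0.00197). Both receptors were ordered from WT down to STAT3-/-PD-1-/- with no overlap, the reverse of the order of Tanc2.

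Plaur and Lrp1, of the same list, were called higher in CD8+ T cells. Plaur, the urokinase receptor, had 6 counts over both WT, 13 over both STAT3-/-, and 77 over both STAT3-/-PD-1-/- libraries and passed the filter through the last of these groups alone, so its call is not read as support. Lrp1, an endocytic receptor that clears complexes of serpins with proteases, had 1.75 and 4.62 CPM in WT, 1.498 and 2.05 in STAT3-/- libraries, and 10.9 and 25.2 in STAT3-/-PD-1-/- T cells (2.49 from WT, SE 0.53, adjusted p = 0.0222). As compared with STAT3-/- CD8+ T cells, Lrp1 (3.34) and F2rl1 (-2.46) were again called, as was Serpinf1 (2.35, SE 0.35, adjusted p = 0.00936). Serpinf1 had 3.16 and 2.81 CPM in WT, 0.471 and 0.614 in STAT3-/- libraries, and 3.24 and 2.35 in STAT3-/-PD-1-/- libraries, so that only STAT3-/- CD8+ T cells were low.

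Among CD4+ T cells 17 of the 29 passed the filter, and 3 were higher and 2 lower in STAT3-/-PD-1-/- against WT (12.9% of all genes called). F2rl1 (-2.94) was lower there too, and Serpinb9b, a relative of the granzyme B inhibitor Serpinb9, was higher (1.85). Serpinb9b was high in both deleted genotypes, with 29.2 and 20.01 CPM in WT, 92.5 and 62.3 in STAT3-/- libraries, and 102 and 73.6 in STAT3-/-PD-1-/- CD4+ libraries. Serpinb8 had no count in either WT library, 1 in the STAT3-/- libraries, and 35 in the STAT3-/-PD-1-/- libraries. As compared with STAT3-/- CD4+ T cells, 3 were higher and 4 lower (11.1%), with Serpind1 (38 counts against 4) and Lrp1 (2.58) among the higher. Serpinb8 and Serpind1 passed the filter through STAT3-/-PD-1-/- libraries alone. No gene of the list was called in STAT3-/- against WT in either subset by edgeR, while 11 of 17 in CD4+ and 7 of 15 in CD8+ T cells had an unadjusted p under 0.05 (10.5% and 11% of all genes) and DESeq2 called 4 in each, where it called 271 of all 11959 and 218 of all 12002 genes.

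Of 24 cathepsins, related aspartic proteases, and cathepsin inhibitors, 17 passed the filter in CD8+ T cells, and 3 were higher and 3 lower both against WT and against STAT3-/- (17.2% and 16.8% of all genes called). The lysosomal carboxypeptidase cathepsin A (Ctsa) had 321 and 333 CPM in WT, 230 and 251 in STAT3-/- libraries, and 126 and 143 in STAT3-/-PD-1-/- T cells (log2 fold change from WT -1.29, SE 0.12, adjusted p = 0.00243 from edgeR). Ctsw, a cathepsin of cytotoxic cells, fell by 1.06 (SE 0.13, adjusted p = 0.00511). Ctsd, another aspartic protease, of lysosomes, had 1398 and 1435 CPM in WT, 1141 and 1284 in STAT3-/- libraries, and 799 and 821 in STAT3-/-PD-1-/- T cells, a fall of 0.81 (SE 0.10, adjusted p = 0.00511). Ctse and Ctsd thus moved in opposite directions in the same CD8+ libraries.

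Other genes of this list were called higher. Within CD8+ T cells Ctsz, Napsa, and Cst3 rose by 0.65, 0.72, and 0.54 from WT on the log2 scale. Against STAT3-/-, Bace2, a membrane-bound aspartic protease, went from 2 counts over both libraries to 30 and passed the filter through the latter alone. Within CD4+ T cells, where 2 of 16 tested genes were higher and 3 lower from WT and 3 were higher and 2 lower from STAT3-/- (12.9% and 11.1% of all genes called), the aspartic protease Napsa had the largest rise of the called genes (2.34 and 1.40), from 1.98 and 2.20 CPM in WT to 10.6 and 10.5 CPM in STAT3-/-PD-1-/- libraries. No gene of the list was called in STAT3-/- against WT by edgeR, while 4 in each subset had an unadjusted p under 0.05 (10.5% and 11% of all genes) and DESeq2 called 1 in each, Ctsa.

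Tanc2 and its paralog Tanc1 also moved in opposite directions. Tanc1 had 31.8 and 29.5 CPM in WT, 21.1 and 23.99 in STAT3-/- libraries, and 12.02 and 10.95 in STAT3-/-PD-1-/- CD8+ T cells, a log2 fold change of -1.42 from WT (SE 0.15, adjusted p = 0.00411 from edgeR) and -0.98 from STAT3-/- (SE 0.15, adjusted p = 0.0101). For CD4+ T cells it was -1.27 from WT (SE 0.18) and -0.70 from STAT3-/- (SE 0.18). Where Tanc2 rose in steps, Tanc1 was lower in STAT3-/- and lowest in STAT3-/-PD-1-/- libraries, with no overlap in either subset.

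Of the 24 synaptic scaffold genes, 17 passed the filter in CD8+ T cells, and 2 were higher and 3 lower from WT and 1 was higher and 3 lower from STAT3-/- (17.2% and 16.8% of all genes called). Tnik, a kinase that binds scaffold proteins, fell by 0.82 from WT (SE 0.14, adjusted p = 0.0113 from edgeR), and Mpp5 rose by 1.01 (SE 0.21, adjusted p = 0.0204). Dlgap4 fell by 0.83 as compared with STAT3-/- (SE 0.12, adjusted p = 0.00833). Lin7a, a small PDZ protein of polarity complexes, went from 2 counts in the WT and 8 in the STAT3-/- libraries to 43 in the STAT3-/-PD-1-/- libraries, through which alone it passed the filter. Among CD4+ T cells 1 of 16 was higher and 1 lower from WT, and 1 was higher and 2 lower from STAT3-/- (12.9% and 11.1% of all genes called), Lin7a and Tanc1 among them. None was called in STAT3-/- against WT by edgeR, while 3 in CD4+ and 4 in CD8+ T cells had an unadjusted p under 0.05 (10.5% and 11% of all genes) and DESeq2 called 0 in each.

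The matrilins other than Matn2 were nearly absent. Matn1 had 1 to 13 counts per group, Matn3 at most 2, and Matn4 none in any library. Of 30 genes of the matrilin and extracellular matrix list only 9 passed the filter in CD8+ T cells, and 4 of these were higher and none lower both from WT and from STAT3-/- (17.2% and 16.8% of all genes called). The largest uncalled fall from WT was that of Lamc1, a laminin chain (-0.39, SE 0.13, adjusted p = 0.0887 from edgeR), and the rest of the 30 genes were not tested. Nid1, a basement membrane protein, had 0.307 and 0.362 CPM in WT, 0.642 and 1.11 in STAT3-/- libraries, and 3.19 and 4.53 in STAT3-/-PD-1-/- CD8+ T cells (log2 fold change from WT 3.50, SE 0.44, adjusted p = 0.00531 from edgeR). The WT libraries of Nid1 were under the cutoff of the filter, which it passed through both other genotypes. The proteoglycan Vcan had 12 counts over both WT and 101 over both STAT3-/-PD-1-/- libraries and passed through the latter alone. Spp1, osteopontin, rose by 2.01 (SE 0.28, adjusted p = 0.00764). Spp1 had 1.45 and 1.53 CPM in WT, 0.2996 and 0.368 in STAT3-/- libraries, and 5.32 and 6.71 in STAT3-/-PD-1-/- libraries, the same order of genotypes as Ctse.

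Within CD4+ T cells 12 of the 30 matrix genes passed the filter, with 2 higher and 1 lower from WT and 3 higher and none lower from STAT3-/- (12.9% and 11.1% of all genes called). The 2 higher from WT were Nid1 (13 counts in WT and 172 in STAT3-/-PD-1-/- libraries) and Vcan (6 and 51), which both passed the filter through STAT3-/-PD-1-/- libraries alone, and Ecm1, a secreted glycoprotein, was lower (-1.81). Of the 3 higher from STAT3-/-, 2 passed in the same way, so these counts are not read against the share of all genes. Spp1 had 12 counts in the STAT3-/- and 135 in the STAT3-/-PD-1-/- libraries. Ecm1 was low in both deleted genotypes, with 9.55 and 17.0 CPM in WT, 2.95 and 4.83 in STAT3-/- libraries, and 2.77 and 4.72 in STAT3-/-PD-1-/- CD4+ libraries. None was called in STAT3-/- against WT by edgeR, while 5 in CD4+ and 3 in CD8+ T cells had an unadjusted p under 0.05 (10.5% and 11% of all genes) and DESeq2 called 1 in each, Ecm1 in CD4+ and Spp1 in CD8+ T cells. Genes that passed the filter only through the group where they are high had to differ, and the genes of the 4 lists that stayed at low counts are not counted as unchanged.

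**Figure D3:**
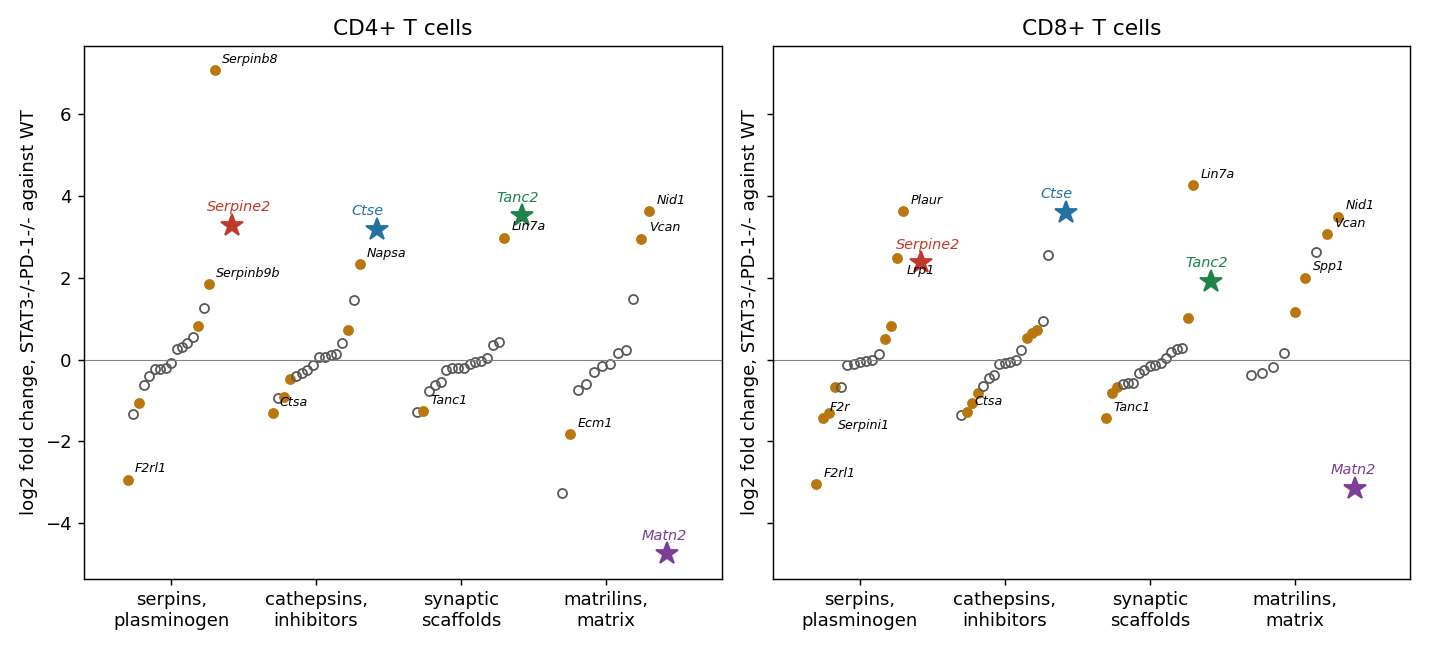
Log2 fold change in STAT3-/-PD-1-/- against WT of the genes tested in each of the 4 lists, in CD4+ (left) and CD8+ T cells (right), ordered by value within a list, with filled points for genes that passed an adjusted p of 0.05, open points for the rest, and stars for Serpine2, Ctse, Tanc2, and Matn2. Called genes lie on both sides of 0 in the first 3 lists, and in the matrix list of CD8+ T cells all 4 called genes lie above 0 while Matn2 has a fitted value of -3.15 that rests on 4 counts. Fitted values of genes with few WT counts, such as Serpinb8 (0 in CD4+) and Lin7a (5 in CD4+ and 2 in CD8+), are no measure of the size of a change.

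Position was not used to choose the genes, yet 3 of the 4 lie on a chromosome that carries a targeted gene. Serpine2 and Ctse are on chromosome 1 with Pdcd1, at distances of 14.2 and 37.6 Mb, and Tanc2 is on chromosome 11 with Stat3, at 4.85 Mb. Matn2 is on neither. In CD8+ STAT3-/-PD-1-/- against WT, 29.2% of genes within 10 Mb of Pdcd1 were called (21 of 72), 13.5% at 10 to 20 Mb, where Serpine2 lies (7 of 52), and 21.4% at 30 to 40 Mb, where Ctse lies (21 of 98), beside 17.2% of all genes. Within 10 Mb of Stat3, where Tanc2 lies, it was 19.9% (46 of 231). Serpine2, Ctse, and Tanc2 are themselves counted among the called genes.

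The CD4+ shares from WT were 20.5% (15 of 73), 13.2% (7 of 53), and 15.3% (15 of 98) in the same bins around Pdcd1 and 14.4% (33 of 229) around Stat3, beside 12.9% of all genes. In CD8+ T cells the share within 10 Mb of Pdcd1 (29.2%) was the highest of any bin on its chromosome. The next were 26.8% at 20 to 30 Mb and 25% at 90 to 100 Mb, and 12.3% were called at 60 to 70 Mb. In CD4+ T cells 21.2% at 50 to 60 Mb was above the 20.5% within 10 Mb, and the other bins were below both. For STAT3-/-PD-1-/- against STAT3-/-, the CD4+ share within 10 Mb of Pdcd1 was 26% (19 of 73), the highest of any bin, beside 11.1% of all genes. The CD8+ share was 25% (18 of 72), below 27.3% at 90 to 100 Mb, beside 16.8%. Around Stat3, CD4+ STAT3-/- against WT had 0.873% (2 of 229) within 10 Mb and 0.881% (2 of 227) at 10 to 20 Mb, beside 0.334% of all genes. The part of distance from the targeted genes in the values of Serpine2, Ctse, and Tanc2 was not tested.

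The called neighbour closest to one of the 4 genes was Rab7b, a small GTPase of endosomes, whose midpoint lies 45.2 kb from that of Ctse on the same strand (chromosome 1, 131688695 to 131715439). Rab7b had 5 and 4 counts in WT, 1 and 2 in STAT3-/- libraries, and 31 and 77 in STAT3-/-PD-1-/- CD8+ libraries. The CD4+ libraries had 9 and 5, 5 and 1, and 51 and 119 counts. The order of the genotypes by summed counts was that of Ctse in both subsets, but the WT and STAT3-/- CD4+ libraries overlapped. Rab7b passed the filter in each subset through its STAT3-/-PD-1-/- libraries alone, so no fold change or test is given for it.

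Of 26 tested genes within 2 Mb of Ctse, 2 were higher and 3 lower in CD8+ STAT3-/-PD-1-/- against WT (17.2% of all genes called), and the median log2 fold change was -0.09, while the 4 called genes other than Rab7b lay between -0.80 for Cd55, a complement inhibitor, and 0.75 for Eif2d. Against STAT3-/- CD8+ T cells 2 were higher and 2 lower (16.8% of all genes called). The CD4+ comparison had 3 higher and 2 lower from WT and 2 higher and 2 lower from STAT3-/- (12.9% and 11.1% of all genes called), and Dstyk had the largest fall (-1.61). No neighbour of any of the 4 genes was called in STAT3-/- against WT in either subset by edgeR, while 6 of 85 in CD4+ and 7 of 86 in CD8+ T cells had an unadjusted p under 0.05 (10.5% and 11% of all genes) and DESeq2 called 0 and 1 (Itgb3).

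Around Serpine2, 3 of 9 tested neighbours were called in CD8+ STAT3-/-PD-1-/- against WT, beside 17.2% of all genes. Acsl3, an enzyme that activates fatty acids, had 5 and 9 counts in WT, 8 and 6 in STAT3-/- libraries, and 32 and 36 in STAT3-/-PD-1-/- CD8+ libraries, and passed the filter through the latter alone. Dock10, a guanine nucleotide exchange factor, fell by 0.51 (SE 0.11, adjusted p = 0.0205 from edgeR), and Farsb, a subunit of phenylalanine-tRNA ligase, rose by 0.45 (SE 0.11, adjusted p = 0.032). Acsl3 lies 1144 kb from Serpine2, and the genes between them were not called in CD8+ T cells. Among CD4+ T cells 1 of 9 was called from WT (Dock10, -0.56) and 2 from STAT3-/-, beside 12.9% and 11.1% of all genes.

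Around Tanc2, 5 of 41 tested neighbours were higher and 2 lower in CD8+ STAT3-/-PD-1-/- against WT, and 8 were higher and 3 lower against STAT3-/-, beside 17.2% and 16.8% of all genes. Mrc2, a collagen receptor 438 kb away, had 5 and 1 counts in WT, 5 and 8 in STAT3-/- libraries, and 81 and 89 in STAT3-/-PD-1-/- CD8+ libraries, through which alone it passed the filter. Wnt3, among the higher against STAT3-/-, had 2 and 2 counts in STAT3-/- and 10 and 21 in STAT3-/-PD-1-/- CD8+ libraries. It passed the filter through the latter alone, as Mrc2 did, so neither call is read as support. Itgb3, an integrin subunit 1120 kb away, had 157 and 166, 265 and 250, and 365 and 473 CPM, a rise of 1.37 (SE 0.14, adjusted p = 0.00393 from edgeR). Itgb3 showed the same steps as Tanc2 in CD8+ T cells. Within CD4+ T cells Mrc2 had no more than 8 counts in any library and was not tested against WT, 3 of 39 tested neighbours were higher and 2 lower from WT (12.9% of all genes called), and Tcam1 went from 3 counts over both WT libraries to 31 over both STAT3-/-PD-1-/- libraries, through which alone it passed the filter.

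Around Matn2, the neighbour Laptm4b, a lysosomal membrane protein 110 kb away, was also lower in CD4+ T cells. It had 4.19 and 3.64 CPM in WT, 1.97 and 2.01 in STAT3-/- libraries, and 0.520 and 0.681 in STAT3-/-PD-1-/- CD4+ libraries, the same order as Matn2 (log2 fold changes of -2.68 from WT and -1.70 from STAT3-/-). In CD8+ T cells Laptm4b had 5 to 9 counts in every library and was not tested. There 2 of 10 tested neighbours were called from WT, beside 17.2% of all genes, both of them higher, Stk3, a kinase of the Hippo pathway (1.498, SE 0.40, adjusted p = 0.0439), and Rida (0.75, SE 0.14, adjusted p = 0.0154). In CD4+ T cells 1 of 11 was higher and 1 lower from WT (12.9% of all genes called).

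**Figure D4:**
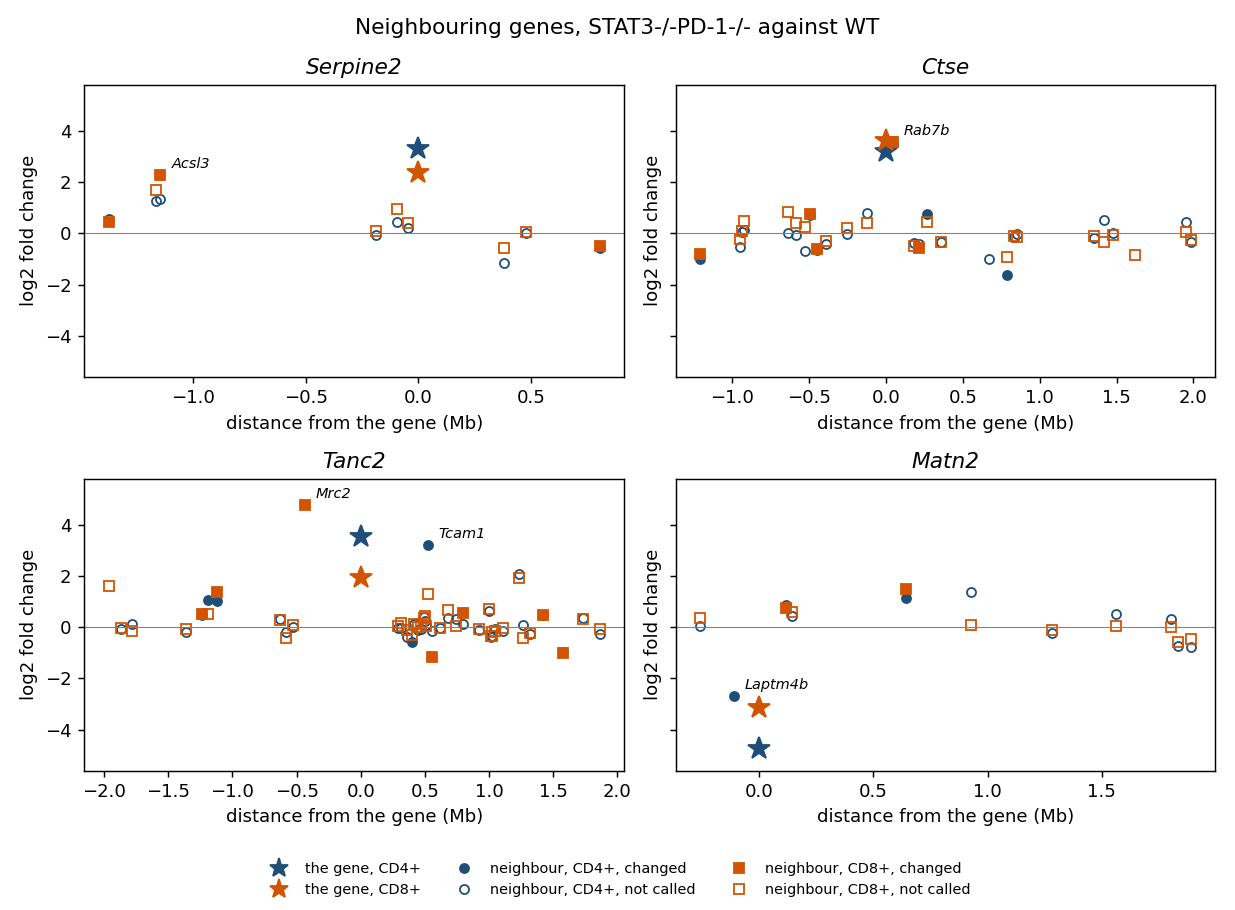
Log2 fold change in STAT3-/-PD-1-/- against WT of the genes tested within 2 Mb of Serpine2, Ctse, Tanc2, and Matn2 (stars at 0), by signed distance between gene midpoints in Mb, with CD4+ T cells as circles and CD8+ T cells as squares and filled symbols for an adjusted p under 0.05. Most neighbours lie near 0. Among those that stand apart are Rab7b beside Ctse, Acsl3 near Serpine2, Mrc2 and Tcam1 near Tanc2, and Laptm4b near Matn2. Of these, Rab7b, Mrc2, Tcam1, and, in CD8+ T cells, Acsl3 passed the filter through the STAT3-/-PD-1-/- libraries alone. Kpna2, Utp14b, Dstyk, and, in CD8+ T cells, Wnt3 also lie away from 0.

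Other genes with the same pattern over the 12 libraries were sought by Pearson's r of log2 CPM among 12333 genes. The 3 closest to Serpine2 were Gabrr1 (r = 0.980), Gm16793 (r = 0.974), and Ak4 (r = 0.973), and among the closest to Ctse were Lrrk2, a large kinase (r = 0.977), and Prxl2a (r = 0.975). Lrrk2 had a mean of 1.28 CPM in WT, 0.840 in STAT3-/- libraries, and 5.82 in STAT3-/-PD-1-/- CD8+ T cells, and Prxl2a had 19.5, 21.1, and 105 CPM. Gabrr1 and Ak4 had group means of at most 0.0633 CPM outside the STAT3-/-PD-1-/- genotype, and 2.21 and 0.754 CPM in STAT3-/-PD-1-/- CD4+ and 0.989 and 0.554 CPM in STAT3-/-PD-1-/- CD8+ libraries. Among the closest to Tanc2 were Cdk5rap2 (r = 0.965) and Cep89 (r = 0.964), both of the centrosome.

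The 3 closest to Matn2 were Nsg2 (r = 0.991), Timp2, an inhibitor of matrix metalloproteases (r = 0.986), and the transcription factor Tcf12 (r = 0.982). Timp2 had a mean of 63.1, 37.3, and 9.78 CPM in WT, STAT3-/-, and STAT3-/-PD-1-/- CD4+ T cells and 12.1, 8.56, and 3.51 CPM in CD8+ T cells, so that it followed Matn2 in both subset and genotype. Among the 4 genes themselves, r was 0.917 for Serpine2 with Ctse, 0.727 for Serpine2 with Tanc2, 0.502 for Ctse with Tanc2, and -0.759 for Tanc2 with Matn2. For Matn2 it was -0.558 with Serpine2 and -0.426 with Ctse. These coefficients describe 12 libraries that share genotype, subset, and depth, and carry no test.

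Some reads of these genes could belong elsewhere. How many did was not measured, and only transcript sequence shared with other genes was counted. Of all windows of 51 bases in their GENCODE transcripts, 0.267% for Serpine2, 0% for Ctse, 0.477% for Tanc2, and 1.16% for Matn2 also occurred in a transcript of another gene. Within Matn2 lies 9430069I07Rik on the opposite strand, and it had at most 2 counts in any library. Tanc2 contains Gm23990, Gm11652, and Gm11653 on its own strand. How the counting treated such overlaps is not given in the sources used here.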

How the data were processed

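Liver donor T cells were measured by RNA-Seq in 12 libraries of 6 groups (2 each). The authors aligned reads to mm10 (GRCm38 in the submitters' processing notes) with STAR 2.7, counted RefSeq genes with HTSeq-count 0.11, and deposited raw counts per gene. The authors also deposited RPKM values (counts per exon length and library size), used here only in an alternative. The labels carry a protocol for an adipogenic cell line and a library kit that differ from the supplemental methods; neither was used.

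Counts were analysed in R 4.3.3 with edgeR 4.0.16: filterByExpr (minimum count 10, minimum total 15), TMM, and the quasi-likelihood test over the 6 libraries of a subset in 1 fit (3 residual degrees of freedom), at a Benjamini-Hochberg adjusted p under 0.05. The SE is the absolute log2 fold change divided by the square root of F. Adjusted p-values without another name are from this fit. CPM and RPKM in the text use TMM over 12 libraries, and r uses log2 CPM with a prior count of 2. The common dispersion amounted to a coefficient of variation of 0.189 (CD4+) and 0.169 (CD8+). Duplicates differed far beyond counting noise (chi-square per gene 29.6 to 84.6). The study states that its data were combined from replicate experiments but does not tie libraries to them, so p-values measure the spread between these pools, which may be technical.

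Named genes are the 4 genes, Stat3 and Pdcd1, their paralogs, up to 3 called genes of each list and comparison with the largest change (2 for neighbours within 2 Mb of gene midpoints), the 3 genes of highest r, the leading gene of each marker list, and the next largest movers. A few genes that the rule names are not reported here. Ctsz, Cst3, Farsb, Il1r1, Miat, and other called genes named beside counts of 5 or fewer were chosen after their values were seen, as were the marker genes named at or near 0. The members and lists were chosen with earlier results of these data known. Of the marker genes, Iglc2 and Ighm were not in the table. Alternatives were DESeq2 1.42.0, other normalization and filters, other sets of libraries, a replicate block, limma 3.58.1 on log2(RPKM + 1) and log2(RPKM + 0.1), and leaving out each library. The fit was run on simulated data in which all libraries varied independently. The simulation lacked the shared deviations of same-numbered libraries and cannot show how the fit behaves with them. Sequences are from RefSeq (GRCm38.p6); figures used Python 3.11.15 and matplotlib 3.10.9.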

Additional observations from a re-analysis of the deposited data

How the results depend on the processing

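The direction of every log2 fold change of the 4 genes held under every alternative, apart from Serpine2 in CD8+ STAT3-/- against WT, which was -0.13 without the second WT library and -0.45 without the first STAT3-/- library. In CD8+ STAT3-/-PD-1-/- against WT, Ctse and Tanc2 kept their calls under all 15 alternatives (highest adjusted p 0.0389 and 0.0484). With DESeq2, Ctse (-0.68) and Tanc2 (1.13) passed in CD8+ STAT3-/- against WT, and Tanc2 (0.78) against STAT3-/-. With all genes of at least 1 count Tanc2 passed both (1.13 and 0.76). On log2(RPKM + 1), which understates low genes, Matn2 lost its call against STAT3-/- in CD8+ T cells (-0.20). Over all alternatives the lowest CD8+ log2 fold change of Tanc2 was 1.15 in STAT3-/-PD-1-/- and 0.62 in STAT3-/- against WT. That of Matn2 in CD8+ STAT3-/-PD-1-/- against WT came as near to 0 as -0.26. The Matn2 calls in CD8+ T cells, not read as tests in view of 4 counts, were also lost without the first WT library (against WT, adjusted p = 0.0529), without the second STAT3-/- library (against STAT3-/-, 0.129), and without either STAT3-/-PD-1-/- library (0.0682 and 0.0947 against WT, 0.0756 and 0.134 against STAT3-/-), and both Serpine2 calls were lost without the second STAT3-/-PD-1-/- library (0.0720 and 0.0831). Matn2 could not be tested in CD8+ T cells with at least 10 counts required in every library.
On log2(RPKM + 1) the CD4+ values for STAT3-/-PD-1-/- against WT were 2.61 for Serpine2, 1.62 for Tanc2, and -2.57 for Matn2, and against STAT3-/- 2.30, 0.79, and -1.83. Tanc2 in STAT3-/- against WT was 0.84, and 1.92 on log2(RPKM + 0.1), where Tanc2 and Matn2 were 3.07 and -4.25 from WT and Matn2 -3.38 from STAT3-/-.
Leaving out 1 library gave these ranges in CD4+ T cells for STAT3-/- against WT, STAT3-/-PD-1-/- against WT, and STAT3-/-PD-1-/- against STAT3-/-: Serpine2 0.073 to 0.90, 3.06 to 3.53, and 2.38 to 3.20; Ctse -1.19 to -0.69, 2.94 to 3.45, and 4.05 to 4.22; Tanc2 2.18 to 2.43, 3.17 to 3.79, and 0.86 to 1.48; Matn2 -1.21 to -0.54, -5.07 to -4.40, and -3.99 to -3.73. In CD8+ T cells the ranges were -0.45 to 0.45, 2.15 to 2.57, and 1.90 to 2.81 for Serpine2; -0.88 to -0.44, 3.38 to 3.82, and 4.19 to 4.35 for Ctse; 1.02 to 1.22, 1.48 to 2.22, and 0.35 to 1.10 for Tanc2; and -0.63 to -0.12, -3.31 to -3.01, and -3.04 to -2.52 for Matn2.
Counts of called genes moved more. Without 1 library they ranged, in the same order, over 1 to 49, 62 to 1947, and 0 to 1212 in CD4+ and 0 to 2, 111 to 1908, and 2 to 1878 in CD8+ T cells, the lowest for both STAT3-/-PD-1-/- comparisons being without the second STAT3-/-PD-1-/- library. CD4+ STAT3-/- against WT had 271 with DESeq2, 165 with at least 1 count, 1 with only the 4 libraries compared, and 164 with all 12 libraries in 1 fit. CD8+ STAT3-/- against WT had 218, 66, 0, and 20, and 1 with at least 10 counts in every library. In CD4+ T cells STAT3-/-PD-1-/- had 2462 against WT with 12 libraries, and 2100 (DESeq2) and 2299 (12 libraries) against STAT3-/-. A replicate block gave 303, 3104, and 3105 in CD4+ T cells and changed no call of the 4 genes in CD8+ T cells. The deviations of same-numbered libraries correlated at 0.834, 0.392, and 0.225 in CD4+ and 0.842, 0.190, and 0.0370 in CD8+ T cells, and the reported fit has no block because no source says what the number marks in these libraries and each comparison has only 2 numbers. The cause of these moves was not tested. Counts of called genes in the lists and among the neighbours, also where none was called, are from the fit without a block. They are not given for the fit with a block. With 2 pools a group, small differences are not detectable, and Matn2 in CD8+ T cells rests on few counts.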
